A study of Mus musculus with 2 samples.

Results

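The clustered Zfp genes are the mouse zinc finger genes that sit beside one another in arrays, and they are described here by the CHD2 peaks at their promoters. Members are protein-coding genes whose symbol is Zfp followed by a number, without Zfp36 and Zfp42, and whose 5′ end lies less than 100 kb from the 5′ end of another such gene on the same chromosome of GRCm38. The rule found 216 members among 391 Zfp genes, out of 21531 protein-coding genes that could be placed with a strand. Members were chosen by name and position, and no peak value entered the rule, which was set with earlier results of these data known. They form 54 clusters, chains of members linked by gaps under 100 kb, on 14 chromosomes. The closest linked pairs just inside the limit were Zfp956 and Zfp777 (96614 bp), Zfp972 and Zfp971 (97634 bp) and Zfp968 and Zfp965 (97991 bp). The closest unlinked pairs just outside it were Zfp771 and Zfp768 (102318 bp), Zfp263 and Zfp174 (103091 bp) and Zfp72 and Zfp825 (103151 bp).

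CHD2, a chromodomain helicase that remodels nucleosomes, was precipitated from ES-E14 cells, a male mouse embryonic stem cell line of strain 129/Ola, and the bound DNA was sequenced (ChIP-seq). There was 1 group, untreated as far as the labels say, with 2 biological replicates that carry the same biosample label, so no condition was compared and no test between groups was possible. The values are lists of peaks with a signal each, the peak caller's own measure. Peaks were compared with one another only within a list, and the values of both replicates stand side by side because no source used here says that their scales match. The optimal list, drawn from both replicates, was the main one, and each replicate's own list was limited to as many of its strongest peaks as the optimal list holds.

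Most tandem arrays of mouse Zfp genes encode C2H2 zinc finger proteins, whose repeated fingers read DNA. Many of them also carry a KRAB domain, which recruits the corepressor TRIM28 (KAP1) and with it the H3K9 methyltransferase SETDB1 and HP1 proteins. In embryonic stem cells this machinery is known for silencing endogenous retroviruses and for protecting imprinted regions. The arrays grew by local duplication, so neighbours can be similar in sequence. No source used here gives how reads that match several copies were handled, and the part of read mapping in a missing peak was not tested.

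The promoters of 4 members with strong peaks are shown first, each with the nearest member of its cluster that had no promoter peak in any of the 3 lists, to show which of them carry the box that the motif counts turn on. Each run holds 300 bases from RefSeq on GRCm38.p6, 5′ to 3′ on the gene's strand, with the annotated start at base 251. Capitals mark CCAAT on either strand, the core of the box read by the factor NFY. The runs of the first pair lie at chr7:30090461-30090760 (minus strand, Zfp566, with a peak) and chr7:30072774-30073073 (minus strand, Zfp82, without), and neither holds the box.
Zfp566: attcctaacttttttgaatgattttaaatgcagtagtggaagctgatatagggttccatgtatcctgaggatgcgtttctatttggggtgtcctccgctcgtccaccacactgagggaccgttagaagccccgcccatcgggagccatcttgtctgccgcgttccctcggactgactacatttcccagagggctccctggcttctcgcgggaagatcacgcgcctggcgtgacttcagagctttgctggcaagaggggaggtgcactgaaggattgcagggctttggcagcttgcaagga
Zfp82: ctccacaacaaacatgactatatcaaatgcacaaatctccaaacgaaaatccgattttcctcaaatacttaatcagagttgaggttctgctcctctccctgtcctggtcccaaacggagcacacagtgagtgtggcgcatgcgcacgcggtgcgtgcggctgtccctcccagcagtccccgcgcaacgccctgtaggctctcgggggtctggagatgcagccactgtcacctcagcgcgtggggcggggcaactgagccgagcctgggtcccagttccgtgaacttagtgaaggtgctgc

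The second pair lies at chr7:127449109-127449408 (minus strand, Zfp689, with a peak) and chr7:127421985-127422284 (minus strand, Zfp688, without). Zfp689 holds the box and the run of Zfp688 does not. The annotated start of the Zfp688 run lies 1207 bp from the gene's outer 5′ end, where peaks were scored. This pair thus does not compare like positions.
Zfp689: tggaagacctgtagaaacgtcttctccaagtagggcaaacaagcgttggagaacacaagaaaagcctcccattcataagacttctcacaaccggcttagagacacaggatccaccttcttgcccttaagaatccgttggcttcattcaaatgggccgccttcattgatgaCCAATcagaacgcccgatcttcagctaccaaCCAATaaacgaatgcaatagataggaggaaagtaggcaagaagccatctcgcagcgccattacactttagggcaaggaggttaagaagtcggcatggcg
Zfp688: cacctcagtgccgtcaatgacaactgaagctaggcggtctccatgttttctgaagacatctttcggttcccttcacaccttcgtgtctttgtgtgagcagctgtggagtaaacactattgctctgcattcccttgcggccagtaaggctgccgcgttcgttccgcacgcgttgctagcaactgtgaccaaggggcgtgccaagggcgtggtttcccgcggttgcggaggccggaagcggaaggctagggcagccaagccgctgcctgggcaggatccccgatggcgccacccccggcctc

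In the third pair, at chr8:71950816-71951115 (plus strand, Zfp961, with a peak) and chr8:71922575-71922874 (plus strand, Zfp617, without), both hold the box.
Zfp961: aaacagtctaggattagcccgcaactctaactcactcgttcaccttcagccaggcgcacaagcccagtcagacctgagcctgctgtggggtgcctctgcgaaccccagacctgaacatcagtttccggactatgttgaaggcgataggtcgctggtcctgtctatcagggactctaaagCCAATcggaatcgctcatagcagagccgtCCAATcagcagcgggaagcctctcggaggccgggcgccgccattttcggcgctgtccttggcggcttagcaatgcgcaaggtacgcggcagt
Zfp617: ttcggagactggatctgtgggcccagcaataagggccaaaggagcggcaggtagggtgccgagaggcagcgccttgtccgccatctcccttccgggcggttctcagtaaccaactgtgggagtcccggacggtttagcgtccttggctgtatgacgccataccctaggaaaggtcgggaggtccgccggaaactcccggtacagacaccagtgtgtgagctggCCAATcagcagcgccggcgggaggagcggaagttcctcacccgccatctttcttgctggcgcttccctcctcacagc

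The fourth pair lies at chr17:32965581-32965880 (plus strand, Zfp472, with a peak) and chr17:33033332-33033631 (minus strand, Zfp763, without), and again both hold it.
Zfp472: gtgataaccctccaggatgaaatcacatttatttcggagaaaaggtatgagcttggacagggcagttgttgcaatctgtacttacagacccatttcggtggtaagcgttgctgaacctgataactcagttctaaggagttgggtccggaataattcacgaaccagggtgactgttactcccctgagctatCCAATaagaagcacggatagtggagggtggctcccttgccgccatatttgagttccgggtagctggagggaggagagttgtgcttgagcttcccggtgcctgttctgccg
Zfp763: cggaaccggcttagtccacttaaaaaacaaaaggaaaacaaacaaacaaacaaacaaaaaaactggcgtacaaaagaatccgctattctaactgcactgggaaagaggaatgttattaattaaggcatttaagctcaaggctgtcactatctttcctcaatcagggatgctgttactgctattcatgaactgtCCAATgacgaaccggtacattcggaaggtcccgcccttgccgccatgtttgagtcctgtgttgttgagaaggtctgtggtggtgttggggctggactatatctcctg
Counted from 1 at the 5′ end of each run, the peak summit fell on base 222 of Zfp566, base 194 of Zfp689, base 165 of Zfp961 and base 196 of Zfp472. In Zfp689, Zfp961 and Zfp472 the summit lay 10, 17 and 3 bp from the middle base of the nearest CCAAT. Zfp286 (255) and Zfp53 (189), with stronger peaks than Zfp961 and Zfp472, are not shown. Zfp286 had no run. The run of Zfp53 holds CCAAT, but the summit lay 215 bp inside that gene and outside the run.

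CHD2 peaks lay at the promoters of 19.0 to 20.8% of clustered Zfp genes, depending on the list, and 14.1 to 14.5% of all genes. The outer 5′ end of a gene was taken as its transcription start site (TSS), and a promoter peak is one with its summit at most 1 kb away. In the optimal list 41 of 216 members had one (19.0%, exact Clopper-Pearson 95% interval 13.98 to 24.9%), against 14.1% of all 21531 genes. In replicate 1's own list 43 members did (19.9%, 14.8 to 25.9%), against 14.5% of all genes. In replicate 2's own list 45 members did (20.8%, 15.6 to 26.9%), against 14.2% of all genes. The interval ended just below the share of all genes in the optimal list (13.98 against 14.1%) and just above it in both replicates' own lists. These intervals cover the counting of genes only, and genes of 1 array are not independent.

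Zfp genes outside clusters had a promoter peak in 48 of 175 cases in the optimal list (27.4%, 21.0 to 34.7%), 42 in replicate 1 (24.0%) and 43 in replicate 2 (24.6%). Their interval overlapped that of the clustered genes in the optimal list, and the difference was not tested. Of the 31 other protein-coding genes that start inside the cluster spans, 3 had an optimal promoter peak (9.68%, 2.04 to 25.8%). Among them were the zinc finger gene Zscan22, with a signal of 48.8, and Naa60, an N-terminal acetyltransferase, with 32.0. Rsl1, a KRAB zinc finger gene that represses sex-limited liver genes, and Rslcan18, both in the chromosome 13 array, had none in any of the 3 lists.

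By cluster, 22 of 54 held at least 1 member with an optimal promoter peak (40.7%, 27.6 to 55.0%), and 23 and 26 did in the own lists of replicate 1 and replicate 2. In 14 of the 22 clusters exactly 1 member was occupied, in 8 more than 1. The 5 clusters with 3 or more occupied members held 21 of the 41 peaks in 54 of the 216 members. These 5 were picked by their count of peaks, so their large part follows at least partly from the choice. Whether peaks gather in some clusters was not tested, and no such count was made over other groups of genes. In 32 clusters with 92 members no member had an optimal peak, and in 24 clusters none had one in any of the 3 lists. In the optimal list Zfp174 and Zfp597 on chromosome 16 formed the single cluster in which every member was occupied. In replicate 2's own list only 1 of these 2 had a peak, whereas both members of the pair Zfp939 and Zfp619 did.

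The intervals of occupancy overlapped across cluster sizes. Clusters of 5 or more members had peaks at 25 of 110 members (22.7%, 15.3 to 31.7%). Those of 3 or 4 had them at 8 of 58 (13.8%, 6.15 to 25.4%), and pairs at 8 of 48 (16.7%, 7.48 to 30.2%). Of 162 neighbouring pairs of members, both had a peak in 10, 1 of them in 42 and neither in 110. The gaps within these pairs ran from 2 to 97991 bp, with a median of 33010.5 bp.

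**Figure D1:**
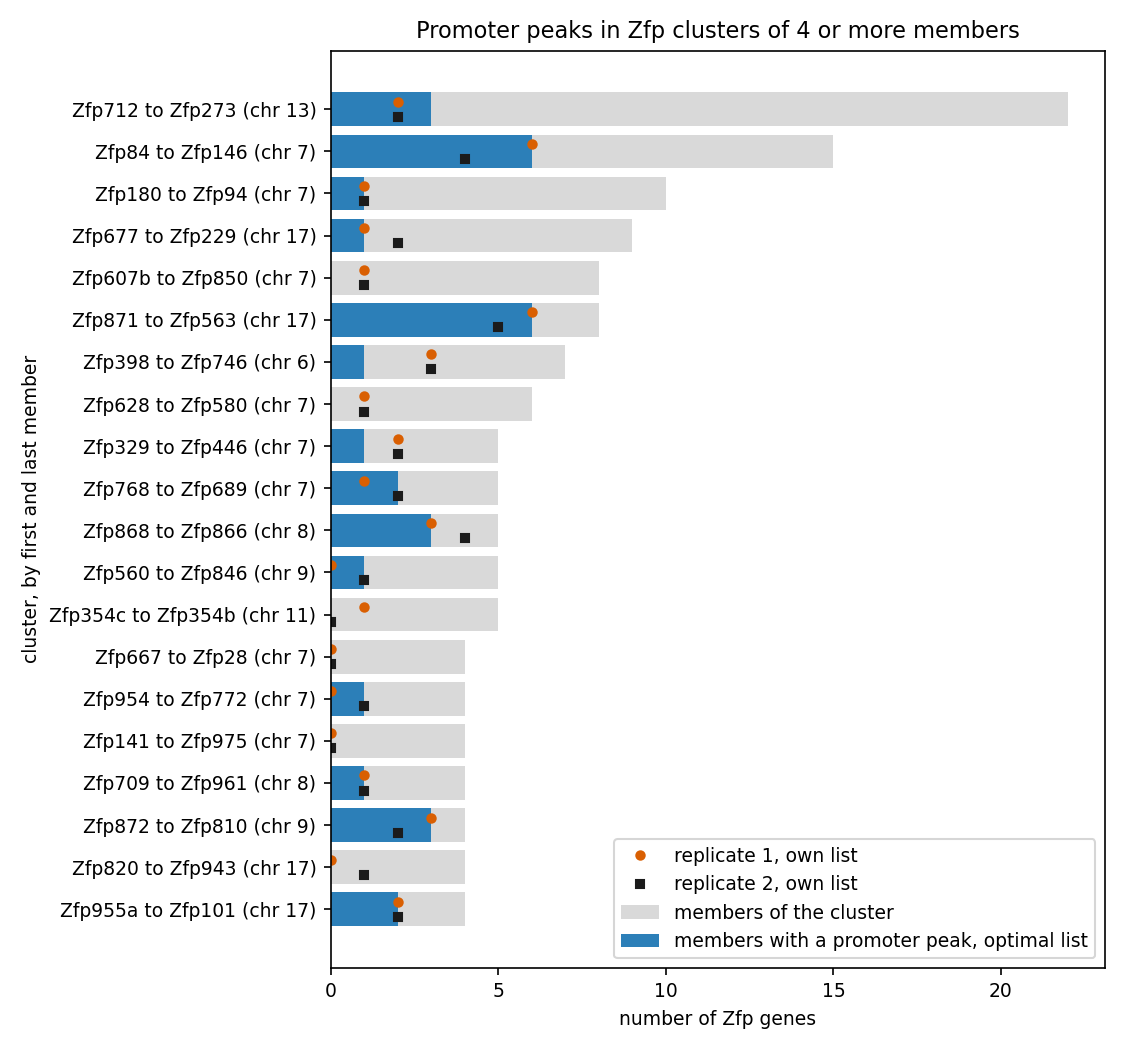
Number of members (grey) and of members with a promoter peak in the optimal list (blue) for the 20 Zfp clusters of 4 or more members, with the counts in each replicate's own list as circles (replicate 1) and squares (replicate 2). The clusters Zfp84 to Zfp146 and Zfp871 to Zfp563 each have 6 occupied members, whereas the largest, Zfp712 to Zfp273, has 3 of 22.

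Among the arrays of 5 or more members, the highest share in the optimal list was on chromosome 17, from Zfp871 to Zfp563 (32788287 to 33089367, 301 kb). There 6 of 8 members had an optimal promoter peak. Zfp472 had a signal of 113, Zfp952 86.6, Zfp871 78.1, Zfp870 74.0, Zfp811 48.5 and Zfp563 20.0, and Zfp799 and Zfp763 had none. All 8 members, with or without a peak, had a KRAB-like match in their coding sequence. Replicate 1's own list also gave 6 occupied members, with Zfp799 (12.3) in place of Zfp563. Replicate 2's gave 5, without Zfp563. In replicate 2's own list the array Zfp868 to Zfp866 on chromosome 8 had a higher share, 4 of 5 members. The cytochrome P450 genes Cyp4f13 and Cyp4f14, which start within the same array, had no promoter peak in any of the 3 lists.

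The array on chromosome 7 from Zfp84 to Zfp146 (29768552 to 30169775, 401 kb) also had 6 occupied members, but out of 15. It held the strongest peak of all members, Zfp566 at 353, beside much weaker ones at Zfp420 (46.3), Zfp260 (40.3), Zfp84 (36.2), Zfp940 (15.1) and Zfp27 (11.8). The human counterpart of Zfp420 is known as a repressor of p53 activity. Zfp568, which represses the placental transcript of Igf2 in mouse embryos, was a member of this array without a promoter peak in any of the 3 lists. Replicate 1's own list gave 6 occupied members here, with Zfp383 (17.5) and Zfp146 (13.5) in place of Zfp940 and Zfp27. Replicate 2's gave 4, again without Zfp940 and Zfp27.

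The largest array, Zfp712 to Zfp273 on chromosome 13 (67061170 to 67813816, 753 kb), had 22 members and 3 peaks. These were at Zfp455 (74.4), Zfp748 (20.6) and Zfp85 (19.9). Both replicates' own lists gave 2, Zfp455 and Zfp748 in replicate 1 and Zfp455 and Zfp85 in replicate 2. Zfp708, which protects the methylation of a family of retroviral repeats in the early mouse embryo, had none in any of the 3 lists. Only Zfp455 of the 3 was also in the conservative list, a second reproducible list of 7530 peaks.

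**Figure D2:**
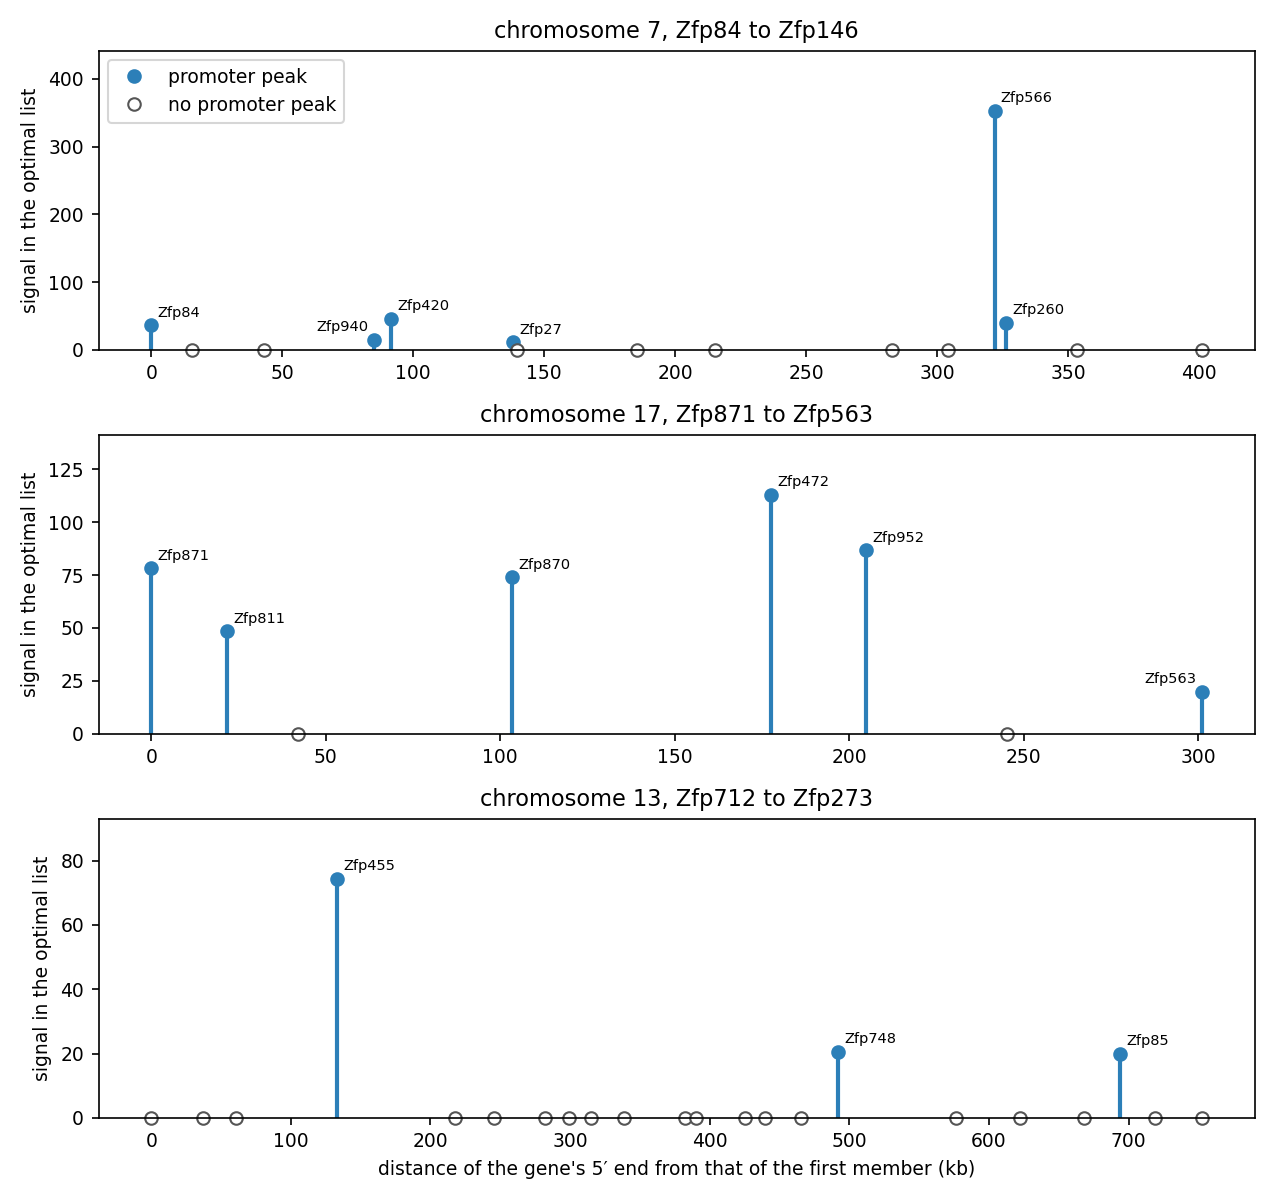
Signal in the optimal list (vertical axis, the peak caller's unit) against the distance of each member's 5′ end from that of the first member (kb) for the 2 arrays with 6 occupied members and the largest array. Filled points are members with a promoter peak and open points are members without one, and peaks of 1 array range from 353 at Zfp566 to 11.8 at Zfp27.

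The other arrays of 5 or more members held fewer peaks, counted here in the optimal list alone. On chromosome 8, Zfp868 (51.5), Zfp869 (87.5) and Zfp866 (32.0) were occupied out of 5. On chromosome 7, Zfp768 (23.2) and Zfp689 (290) were occupied out of 5, Zfp128 (33.3) out of 5, and Zfp108 (35.4) out of 10. Zfp53 (189) was the single occupied member of 9 in the array Zfp677 to Zfp229 on chromosome 17, Zfp956 (40.6) of 7 on chromosome 6, and Zfp426 (19.2) of 5 on chromosome 9. The arrays Zfp607b to Zfp850 (8 members) and Zfp628 to Zfp580 (6 members) on chromosome 7 and Zfp354c to Zfp354b (5 members) on chromosome 11 had no optimal promoter peak.

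A smaller array on chromosome 9, Zfp872 to Zfp810, had 3 of its 4 members occupied. They were Zfp810 (77.4), Zfp809 (72.7) and Zfp599 (31.9). Zfp809 is known for silencing murine leukaemia virus in embryonic stem cells, through the primer binding site of the provirus. By chromosome, peaks lay at 10 of 37 members on chromosome 17, 14 of 76 on chromosome 7, 4 of 12 on chromosome 9 and 4 of 9 on chromosome 8. Chromosome 4 had none among 12 members (0%, up to 26.5%), and neither replicate's own list placed one there. Among all genes the shares of these chromosomes were 16.9, 13.4, 13.7, 17.4 and 14.1%. Elsewhere, peaks lay at 1 of 11 members on chromosome 2, 1 of 11 on chromosome 6 and 3 of 22 on chromosome 13. They lay at 2 of 9 on chromosome 11 and 2 of 2 on chromosome 16. Chromosomes 5, 15, 18 and X, with 3 to 5 members each, also had none in the optimal list.

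The strongest member peaks were found at high rank in both replicates. They were picked by their signal in the optimal list, which is drawn from the same 2 replicates. Their high ranks thus follow at least partly from the choice. At Zfp566, whose coding sequence holds 7 finger matches and a KRAB-like match, the signal was 176 in replicate 1 and 177 in replicate 2, ranks 57 and 32 of their lists, and 353 in the optimal list, rank 34 (chromosome 7, 30090402 to 30090692, summit 29 bp upstream of the TSS). At Zfp689 it was 139 and 150, and 290 in the optimal list (chromosome 7, 127449094 to 127449345, summit 57 bp upstream). At Zfp286 it was 147 and 110, and 255 in the optimal list (chromosome 11, 62789440 to 62789691, summit 61 bp upstream). Each of the 3 has a KRAB-like match and 7 to 10 finger matches.

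Zfp53, also of the KRAB-like type, had 103 in replicate 1 and 83.4 in replicate 2, and 189 in the optimal list (chromosome 17, 21489032 to 21489264). The summit was 215 bp inside Zfp53, whereas those of the 3 stronger peaks were upstream. Zfp961 had 53.5 and 67.7, and 122 in the optimal list (chromosome 8, 71950899 to 71951061, summit 68 bp upstream). Zfp472 had 60.1 and 53.5, and 113 in the optimal list (chromosome 17, 32965669 to 32965826, summit 55 bp upstream). Zfp101, on chromosome 17 in a neighbouring array, also had 113 (33394579 to 33394765, summit 39 bp upstream), with 68.4 in replicate 1 and 45.9 in replicate 2. Zfp101 ranked 516 in the list of replicate 1 and 934 in that of replicate 2, and Zfp961 ranked 761 and 491.

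The next 5 had signals from 88.5 to 78.1. Zfp960 had 42.3 in replicate 1 and 48.4 in replicate 2 (88.5 in the optimal list, chromosome 17, 17063809 to 17064168, summit 114 bp upstream). Zfp869 had 58.5 and 30.0 (87.5, chromosome 8, 69716831 to 69717190, summit 57 bp inside). Zfp869 ranked 677 in the list of replicate 1 and 1633 in that of replicate 2 and, unlike the other 11 of the 12 strongest, has no KRAB-like match. Zfp952 had 39.6 and 49.1 (86.6, chromosome 17, 32993066 to 32993158, summit 4 bp upstream), and Zfp120 had 48.6 and 34.0 (82.4, chromosome 2, 150136587 to 150136946, summit 89 bp upstream). Zfp871 had 41.4 and 33.9 (78.1, chromosome 17, 32788149 to 32788508, summit 42 bp upstream).

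The remaining occupied members not yet given were Zfp174 (64.2), a SCAN-domain gene, Zfp444 (59.6), Zfp81 (55.1), Zfp939 (41.7), Zfp672 (37.4), Zfp597 (26.2), Zfp819 (23.5) and Zfp954 (22.5). Zfp819 is known for repressing retroelements in pluripotent cells, and its peak was outside the limited lists of both replicates (8.67 in replicate 1, 11.2 in replicate 2). Zfp445, which maintains imprints together with Zfp57 in mouse, and Zfp746, a repressor of Pgc-1α, were members without a promoter peak in any of the 3 lists. Over all 41 peaks the optimal signal had a median of 48.5 and ran from 11.8 to 353. The median was 35.4 over the 48 peaks of Zfp genes outside clusters and 44.0 over all 2602 promoter peaks.

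In replicate 1's own list the median of the members' peaks was 27.0, against 22.3 over all promoter peaks. In replicate 2's it was 20.3, against 22.0, so the order of the medians turned between the replicates. Of the 41 peaks, 7 were among the 828 strongest optimal peaks (17.1%), against 22.4% of all promoter peaks. Among the 4141 strongest were 31 (75.6%), against 70.9%. The levels of the members' peaks were thus near those of promoter peaks in general.

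Of the 41 optimal peaks, 28 members also had a promoter peak in the own lists of both replicates (68.3%), against 71.5% of all 3036 genes with an optimal promoter peak. A further 5 had one in replicate 1 alone, 3 in replicate 2 alone and 5 in neither. All 41 peaks overlapped some peak in each replicate's whole list of 300000, as did 2553 of all 2602 promoter peaks. Across these 41 peaks Spearman's rho of the replicates' signals was 0.82, against 0.749 across all promoter peaks. The peaks share 2 libraries, so these figures describe the lists.

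Zfp398 and Zfp786, a pair on opposite strands with overlapping 5′ ends in the chromosome 6 array, had a promoter peak in both replicates' own lists (20.0 in replicate 1, 13.4 in replicate 2) and none in the optimal list. Both values come from 1 peak shared by the 2 genes, which was in the conservative list at 35.4. Another 8 members had a promoter peak in replicate 1 alone, from 11.2 at Zfp428 to 17.5 at Zfp383, and 12 in replicate 2 alone, from 11.6 at Zfp647 to 17.2 at Zfp266. The lowest signal in these limited lists was 11.1 in replicate 1 and 11.6 in replicate 2. All 20 values were below the medians of the members' peaks in their lists, 27.0 and 20.3. Some of these members did have a promoter peak in the conservative list. They were Zfp383 (23.2) and Zfp799 (16.3) from replicate 1. From replicate 2 they were Zfp114 (24.2), Zfp54 (24.0), Zfp820 (21.9), Zfp551 (21.7) and Zfp110 (19.1). With Zfp398 and Zfp786, 9 members had a peak in the conservative list and none in the optimal list. The last 153 of the 216 members had no promoter peak in any of the 3 lists.

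**Figure D3:**
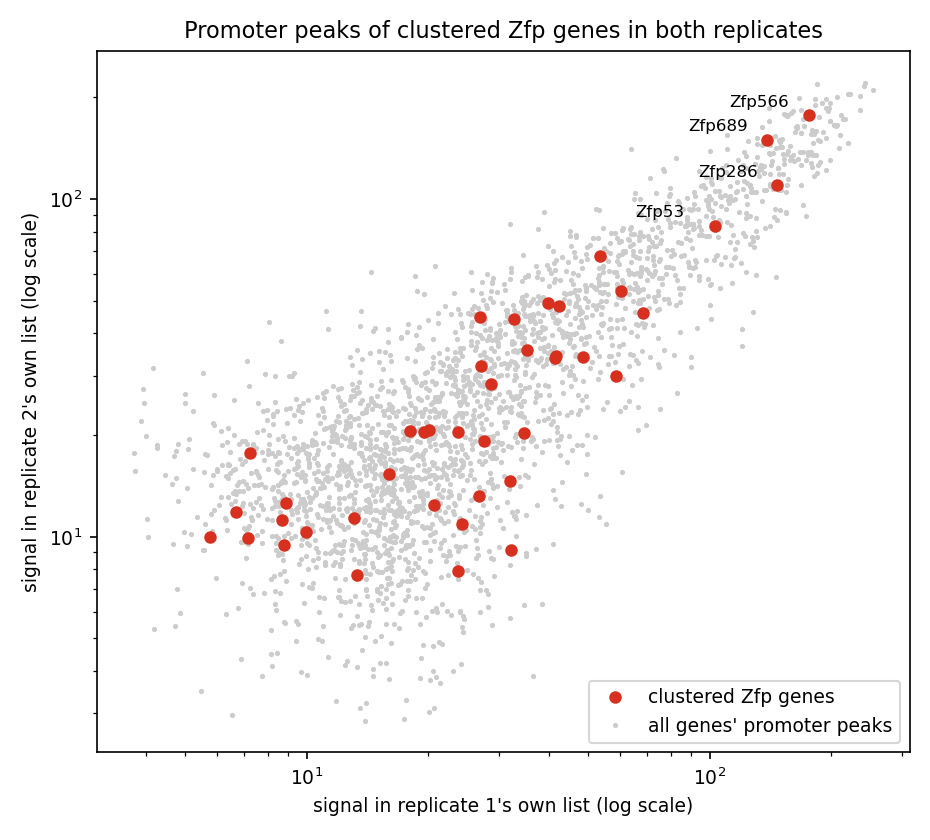
Signal of promoter peaks in the whole list of replicate 1 (horizontal axis) and of replicate 2 (vertical axis), 300000 peaks each, both on a log scale, for the 41 clustered Zfp genes with an optimal peak (red) and for all promoter peaks found in both lists (grey). The red points lie within the grey cloud, and Zfp566, at 176 and 177, is the member furthest to the upper right.

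The summits sat close to the annotated starts. The distance from summit to TSS had a median of 56 bp over the 41 members, with a range of 1 bp at Zfp870 to 659 bp at Zfp819, against a median of 104 bp over all 3036 genes with a peak. In 29 members the summit lay upstream of the start and in 12 inside the gene, and 37 of 41 summits lay within 250 bp. All 41 summits were nearer to the member's own TSS than to that of any other protein-coding gene. Zfp672 was the single member with another start in the window, that of the divergent gene Sh3bp5l, 580 bp away.

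Peaks inside the bodies of members were rarer. There were 12 optimal peaks in 11 members over 1 kb from any protein-coding TSS (5.09% of members, 2.57 to 8.93%), and 8.75% of all genes had such an inner peak. The median gene length was 15819 bp in members and 17272 bp over all genes, and the interval holds the share of all genes. The strongest was in Zfp180 (chromosome 7, 24087637 to 24087781), with 70.7 in replicate 1, 39.2 in replicate 2 and 106 in the optimal list, and its summit lay 5786 bp from the TSS. The next were in Zfp74, with 43.5, 46.1 and 85.6, Zfp978, with 28.1, 15.2 and 44.6, and Zfp428, with 23.9, 16.8 and 42.5. All 4 were found in the own lists of both replicates.

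The positions of these inner peaks ran from 15.2% of the gene length in Zfp229 to 83.6% in Zfp286, and none lay in the last 10% of a member. The finger exon of such genes usually sits towards that end. Exon positions were not read, so whether any inner peak lay in a finger exon was not tested. Zfp229 and Zfp428 have another RefSeq start near the inner peak, 31 bp and 134 bp from the summit. Counting every start of the RefSeq promoter table, a choice made after the data were seen, gave 43 members with a promoter peak (19.9%), against 15.4% of all genes.

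The base composition of the promoters differed little between members with and without a peak. RefSeq promoter runs were at hand for 187 members, 37 with an optimal peak and 150 without. The CpG ratio, observed over expected CpG in the 300 bases, had a median of 0.612 in members with a peak and 0.568 in members without. Over all genes the medians were 0.812 with a peak and 0.485 without. Median GC content was 51.0% in members with a peak and 53.5% in members without, against 60.3% and 55.3% over all genes with and without one.

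With all promoters divided into 3 equal classes by CpG ratio, at 0.317 and 0.757, members had a peak in 3 of 28 in the low class (10.7%, 2.27 to 28.2%), 25 of 117 in the middle class (21.4%, 14.3 to 29.9%) and 9 of 42 in the high class (21.4%, 10.3 to 36.8%). The shares over all genes were 1.92, 15.5 and 26.7%. In the low class each replicate's own list had a peak at 2 of the 28 members, against 109 of 5833 genes in replicate 1 and 117 in replicate 2, so the members' share there rests on 2 or 3 genes. The 3 occupied members of the low class were Zfp27, Zfp868 and Zfp811.

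**Figure D4:**
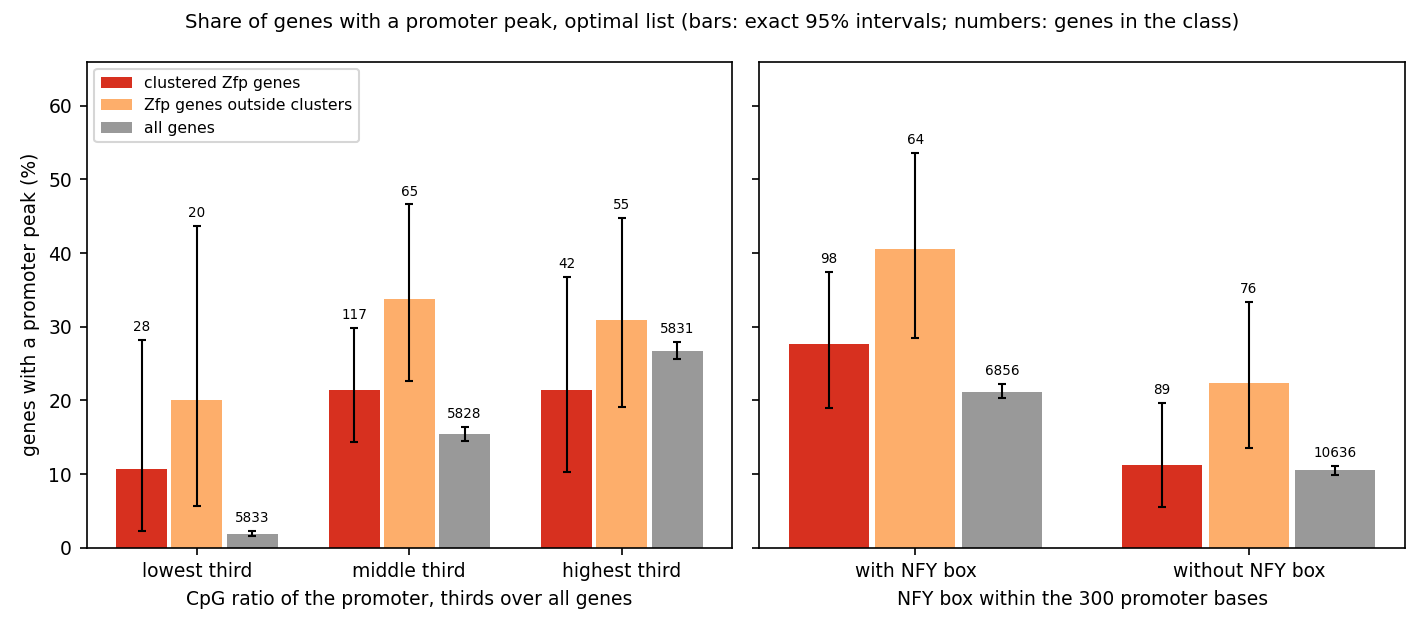
Share of genes with an optimal promoter peak (%) by class of promoter CpG ratio (left) and by the presence of the NFY box in the 300 promoter bases (right), for clustered Zfp genes (red), Zfp genes outside clusters (orange) and all genes (grey). Bars through the columns are exact 95% intervals and the numbers above them count the genes, and among clustered Zfp genes the share is 27.6% with the box and 11.2% without it.

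CCAAT was the searched motif found most often, both in members with a peak and in members without. It is also the shortest of the motifs, which makes a match more likely, so its first place says little by itself. Searched on both strands within the 300 bases, it was in 27 of 37 members with a peak (73.0%, 55.9 to 86.2%) and 71 of 150 members without (47.3%, 39.1 to 55.6%). It was in 56.6% of all promoters with a peak, 36.2% of all without one and 39.2% of all 17492 promoters. More than 1 copy was present in 16 of 37 members with a peak (43.2%) and 22 of 150 without (14.7%), against 34.2% of all promoters with a peak and 13.5% of all promoters. Zfp869 had 4 copies, the most of any member, and 3 copies were found in 3 members with a peak (Zfp420, Zfp563 and Zfp939) and 4 without one (Zfp119b, Zfp955a, Zfp955b and Zfp972).

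Read the other way, 27 of 98 members with CCAAT had an optimal peak (27.6%, 19.0 to 37.5%) and 10 of 89 members without it did (11.2%, 5.52 to 19.7%). The shares over all genes were 21.2% with CCAAT and 10.5% without. In replicate 1's own list the members' shares were 24.5% with CCAAT and 15.7% without, and in replicate 2's 26.5% and 15.7%. The direction was the same in both replicates, with a smaller gap than in the optimal list. For 1 of the 37 and 28 of the 150 members the run starts over 1 kb from the outer 5′ end at which peaks were scored. Without these, CCAAT was in 26 of 36 members with a peak (72.2%) and 59 of 122 without (48.4%).

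Among the 12 strongest members, Zfp689, Zfp53, Zfp961, Zfp472, Zfp101, Zfp869, Zfp952, Zfp120 and Zfp871 hold CCAAT. Zfp566, the strongest, does not, and Zfp286 and Zfp960 had no run in the table. In the 27 members with a peak and the box, the copy nearest to the start lay between -238 and -16 bases from it, with a median place of -57. In the 71 members without a peak it had a median place of -69.

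Where the summit lay inside the run and the run held CCAAT, both were close. This was the case in 21 of the 29 members with the summit in the run. The median distance from the summit to the middle base of the nearest copy was 13 bp, and 20 of the 21 summits lay within 50 bp. These 20 were 69.0% of the 29 summits. The distance was 2 bp at Zfp956, 4 bp at Zfp81, Zfp871 and Zfp952, and 135 bp at Zfp940, the exception. Over all genes the median was 15 bp over 1099 summits, of which 81.1% lay within 50 bp (53.0% of the 1682 summits in a run). For Zfp genes outside clusters it was 30 bp over 24 summits, of which 62.5% lay within 50 bp (45.5% of 33).

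The other motifs were also searched as exact letters on both strands, and matches of different motifs may overlap. GGGCGG, the GC box read by Sp factors, was in 37.8% of members with a peak and 37.3% of members without, against 64.6% of all promoters with a peak and 46.3% of all promoters. TCTCGCGA, the element read by BANP, was in 0 of 187 members, whereas 8.56% of all promoters with a peak and 1.53% of all promoters held it. GCGCATGCG, read by NRF1, was in 0 of 37 members with a peak and 10 of 150 without (6.67%), against 2.41% of all promoters.

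CCGGAAGT, an ETS site, was in 1 of 37 members with a peak and 15 of 150 without, against 5.28% of all promoters. AAGATGGCG, read by YY1, was in 0 of 37 and 2 of 150, against 1.92%. TGACGTCA, the cyclic AMP response element, was in 1 of 37 and 6 of 150, against 2.33%, and CACGTG, the E-box, in 2 of 37 and 14 of 150, against 7.91%. TATAAA was in 1 of 37 and 9 of 150, against 13.3%. In this order, the shares among all promoters with a peak were 9.8, 4.12, 4.01, 9.72 and 6.34%. With 37 members, 0 matches allow a share of up to 9.49%, so most of the counts in members with a peak cannot be told from the background. In members without a peak the intervals of CCGGAAGT (5.71 to 16.0%) and GCGCATGCG (3.24 to 11.9%) lay above the shares of all promoters. Those of TATAAA (2.78 to 11.1%) and GGGCGG (29.6 to 45.6%) lay below them.

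**Figure D5:**
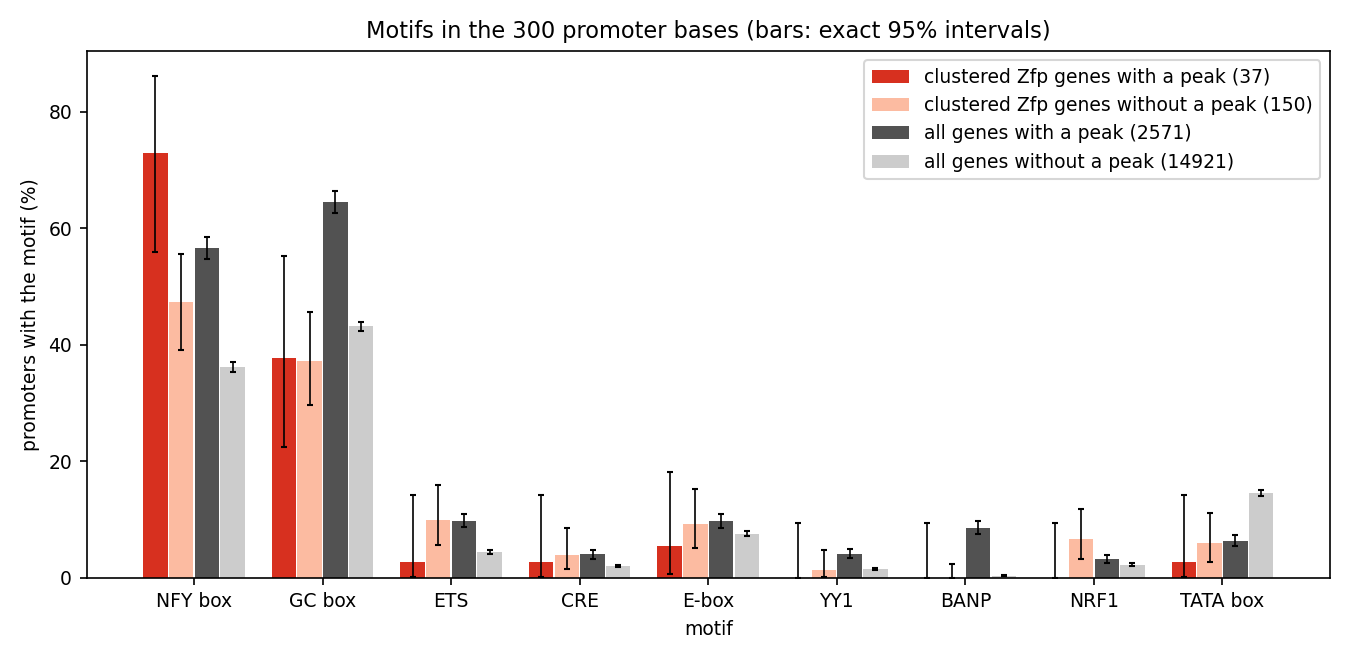
Share of promoters (%) that hold each motif within 300 bases, for clustered Zfp genes with an optimal peak (red), clustered Zfp genes without one (pale red), all genes with one (dark grey) and all genes without one (light grey), with exact 95% intervals. The NFY box stands at 73.0% in clustered Zfp genes with a peak and 47.3% in those without, while the GC box stands at 37.8 and 37.3%.

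Finger number and KRAB-like matches were close in members with and without a peak. In the longest GENCODE M1 coding sequence, the pattern of a C2H2 finger was found a median of 10 times in the 41 members with a peak (3 to 23) and 12 times in the 168 members without a peak that had a sequence (0 to 33). A KRAB A box-like pattern was in 65.9% of members with a peak and 63.1% of members without, and in 23.8% of Zfp genes outside clusters. An optimal promoter peak was present at 27 of 133 members with a KRAB-like match (20.3%, 13.8 to 28.1%) and 14 of 76 without one (18.4%, 10.5 to 29.0%). In replicate 1's own list these counts were 24 and 18, and in replicate 2's 27 and 18. The patterns miss divergent domains, so they are lower counts.

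Genes linked to silencing by KRAB proteins, whether or not these recruit them, were examined as a list of 17. Of these, 5 had an optimal promoter peak (29.4%, 10.3 to 56.0%), against 14.1% of all genes. The interval holds the share of all genes. Mphosph8, a subunit of the HUSH silencing complex, had 44.8 in replicate 1, 39.9 in replicate 2 and 86.1 in the optimal list. Cbx5, which encodes HP1α, had 36.7, 30.4 and 64.7. Cbx1, which encodes HP1β, had 41.0 in replicate 1 and 47.9 in the optimal list, and was not among the promoter peaks of replicate 2's own list.

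Setdb1, the H3K9 methyltransferase, had 12.1 in replicate 2 and 22.3 in the optimal list, and none in replicate 1's own list. Morc3, a chromatin ATPase, had 18.1 in the optimal list alone. Trim28, the corepressor itself, Atf7ip, the partner of SETDB1, Cbx3, which encodes HP1γ, and Chd4 had no promoter peak in any of the 3 lists. Mphosph8 and Cbx5 were thus the 2 genes of this list with a peak in all 3, and each replicate's own list held 3 of the 17 (17.6%), against 14.5% of all genes in replicate 1 and 14.2% in replicate 2.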

How the data were processed

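CHD2 ChIP-seq peaks of 2 biological replicates of ES-E14 cells were used. The authors deposited narrowPeak lists on mm10: an optimal and a conservative list from the irreproducible discovery rate procedure, a pooled relaxed list and 1 relaxed list per replicate, each of 300000 peaks, and an mm9 list of 4613 peaks, per the file descriptions beside the samples. The deposited signal of a peak is the peak caller's own value, with no stated normalization, and it ranked and described peaks within 1 list. The deposited summit offset gave the summit. Which caller, aligner and filters were used is not given in the sources used here. Controls were not analysed here. Read depth is unknown, so intervals cover counting of genes alone.

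Genes were the RefSeq protein-coding genes of GRCm38.p6. The strand came from the RefSeq promoter table (17492 genes) or else GENCODE M1 by symbol or synonym (4039), which placed 21531 of 21887 genes (98.4%). The TSS is the outer 5′ end, so inner starts are missed. Members and lists, including the 17 silencing genes and the motifs, were chosen with earlier results of these data known, and lists are described by counts and medians without a test. Shares carry exact Clopper-Pearson 95% intervals. Fingers (C, 2 to 4 residues, C, 12, H, 3 to 5, H) and a KRAB A box-like pattern were counted in GENCODE M1 coding sequences.

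Named were the 12 members with the strongest optimal promoter peaks, the other occupied members, members with peaks in both replicates alone, the arrays of 5 or more members, the gaps nearest to 100 kb, and the silencing genes with a peak and up to 4 without one. The inner peaks, the members of single replicate lists named at their ends, the neighbours within arrays and the unoccupied members with a known role were named after their values were seen. Another gene inside the cluster spans is not reported here by name. Cluster assignment and peak counting were tested on simulated data. Python 3.11.15, pandas 2.3.3 and SciPy 1.17.1 were used.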

Additional observations from a re-analysis of the deposited data

How the results depend on the processing

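Of the values recomputed under other settings, 56 held and 11 moved. A count held within 1.5 times its main value, and any change of the CpG ratio was taken as a move. By this rule, member peaks matched in both replicates held although they rose from 28 to 41 of 41 with the whole lists. Leaving 1 replicate out left the other's own list, so most of those values repeat ones given above. The members' median signal was judged by its ratio to the median of all promoter peaks of its list, 1.1 in the optimal list and 0.923 to 1.21 in the others (SD of the replicates' ratios 0.204). Clustered members with a promoter peak numbered 40 with a window of 500 bp (18.5%, against 12.6% of all genes), 46 with 2.5 kb (21.3%, against 16.2%), 44 in the conservative list (20.4%, against 13.6%), 46 in the pooled list (21.3%, against 15.0%) and 31 among the 4141 strongest optimal peaks (14.4%, against 10.1%). With 1 replicate left out they numbered 43 to 45, and clusters with a peak 23 to 26. Linking genes under 50 kb gave 34 of 175 members and under 200 kb 47 of 243. On the mm9 list, 25 of 209 members had a peak (12.0%), against 9.96% of all genes, and 21 of the 25 also had an optimal peak on mm10. The cause was not tested, but that list holds 4613 peaks.

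The other moved values follow. Other genes in the spans with a peak numbered 5 with 2.5 kb, 1 of 11 with links under 50 kb, 13 of 87 with links under 200 kb, and 3 to 5 with 1 replicate left out. Zfp genes outside clusters fell to 30 among the strongest 4141 peaks. Silencing genes numbered 3 there and 3 with either replicate left out. The median CpG ratio of members with a peak was 0.541 over 500 bp on each side on mm9, against 0.527 without a peak, and 0.607 for runs within 1 kb of the outer 5′ end. That last setting, the count over every RefSeq start and the strand from GENCODE M1 alone (41 of 210 members) were chosen after the data were seen. No paired analysis was possible because there is 1 group of samples.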
